A study of Homo sapiens with 36 samples.

Results

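The AP-1 family genes were taken as a fixed list of 8: the FOS genes FOS, FOSB, FOSL1 and FOSL2, the JUN genes JUN, JUNB and JUND, and ATF3. The list was set by gene name. All 8 were counted among the 59607 features of the total RNA tables. In the polyA tables, FOS, FOSB, FOSL2 and ATF3 were counted among 60095 features, and FOSL1, JUN, JUNB and JUND had no entry. Every counted member passed the filter on low counts, 8 of 8 in total RNA and 4 of 4 in polyA RNA.

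The RNA came from derivatives of HCT116, an established human colon carcinoma line, in 4 groups of 3 libraries per data set. Triplicates of the cytoplasm are called technical in the labels. SDs, intervals and p-values below thus reflect spread among these libraries alone, which may be technical. The DIS3-AID cells were a single CRISPR clone in which DIS3, a ribonuclease of the nuclear RNA exosome, carries an auxin-inducible degron. They were sampled after 500 uM auxin for 1 h or without auxin. The control cells expressed TIR1, the plant receptor that hands degron-tagged proteins to the proteasome when auxin is present, and were sampled with the same auxin dose or without it. Cytoplasm and chromatin were separated by lysis in buffers of different salt content, and 3 data sets of 12 libraries each were made, from total RNA of the cytoplasm, total RNA of chromatin and polyA RNA of the cytoplasm. The clone also expressed TIR1, so that TIR1 is common to all groups. An effect of the tag and a trait of the single clone cannot be told apart in a comparison of the lines.

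AP-1 is a dimer of basic leucine zipper proteins. JUN proteins pair with each other or with FOS proteins, FOS proteins need a JUN partner to bind DNA, and ATF3 pairs with JUN proteins and often acts as a repressor. FOS, FOSB, JUN, JUNB and ATF3 are immediate-early genes, which serum, growth factors and stress switch on within minutes through kinases that act on factors already sitting on their promoters, and the mRNAs of several of them are short-lived because of AU-rich elements. FOSL1 and FOSL2 respond later, and FOSL1 is often the main FOS protein in carcinoma cells with an active RAS pathway.

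The members lie on 5 chromosomes (hg38, GENCODE 29). FOS (ENSG00000170345.9) is on chromosome 14, 75278774 to 75282230, plus strand. FOSB (ENSG00000125740.13), JUNB (ENSG00000171223.5) and JUND (ENSG00000130522.5) are all on chromosome 19, at 45467995 to 45475179 on the plus strand, 12791496 to 12793315 on the plus strand and 18279760 to 18281622 on the minus strand. FOSL1 (ENSG00000175592.8) is on chromosome 11, 65892049 to 65900573, minus strand, and FOSL2 (ENSG00000075426.11) on chromosome 2, 28392448 to 28417312, plus strand. JUN (ENSG00000177606.6) and ATF3 (ENSG00000162772.16) are on chromosome 1, at 58780788 to 58784327 on the minus strand and 212565334 to 212620777 on the plus strand. Counts are given per gene, and the parts of a gene that were counted are not stated in the sources used here. In polyA RNA these seem to be the non-coding transcript models alone, as set out below.

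Promoter sequence bears on how such genes respond as a group, so the 250 bases before each start were searched on both strands. RefSeq windows (GRCh38.p14) were matched for 7 members, FOSL1 not among them, with 8 windows because ATF3 has a pair. The search covered the CRE (TGACGTCA), the site of CREB and ATF proteins, its 6-base core TGACGT, which also lies within the CRE, and TGACATCA, a CRE-like element of the JUN promoter known to bind JUN and ATF2 dimers. The stretches with a match are shown 5′ to 3′ on the gene's own strand, with the matched letters in capitals.
FOS, chr14:75278753-75278780, plus strand: ggttgagcccgTGACGTttacactcatt
FOSB, chr19:45467925-45467952, plus strand: caaggggcgggTGACGTaagcagggggg
FOSL2, chr2:28392781-28392808, plus strand: gagtctggggtTGACGTgagtgaatcca
JUN, chr1:58784096-58784125, minus strand: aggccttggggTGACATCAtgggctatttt
ATF3, chr1:212565273-212565302, plus strand: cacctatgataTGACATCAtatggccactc
JUND, distal match, chr19:18281804-18281833, minus strand: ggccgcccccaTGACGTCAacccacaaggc
JUND, proximal match on the other strand, chr19:18281693-18281720, minus strand: gcaaatgagcgACGTCAcccgcacccaa

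The 6-base core was found in 4 of the 8 windows, those of FOS, FOSB, FOSL2 and JUND, against 7.1% of 35116 promoters of this length. It began 64 bases before the start in FOS, 60 in FOSB and 66 in FOSL2. Distances are from the RefSeq starts, which differ from the ends of the GENCODE genes given above for some members, so the stretches of FOSL2 and JUN and part of that of FOS lie within those genes' spans. The full CRE stood in 1 window, that of JUND, against 1.65% of promoters, and TGACATCA in 2, those of JUN and ATF3, against 2.37%. The AP-1 element TGACTCA was in no window of a member and in 4.2% of promoters. The CCAAT box (CCAAT, the site of NF-Y) was in 4 windows against 32% of promoters, and TATAAA in 4 against 10.7%. Each match is a description of the letters in the window.

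Read depth was 59.5 to 122.6 M counts per library in cytoplasm total RNA, 50.3 to 139.0 M on chromatin and 25.9 to 33.1 M in cytoplasm polyA RNA. Summed levels (CPM, counts scaled to library size) of 6 markers of colon epithelial cells were between 2751 and 3549.5 in the cytoplasm total RNA libraries, against 0.119 to 0.297 for 4 blood cell markers and 8.83 to 13.8 for 5 fibroblast markers. A set of 3 nuclear-retained RNAs summed to 3625 to 5289 CPM on chromatin and 835 to 1019.9 CPM in the cytoplasm, and 5 cytoplasmic mRNAs to 291 to 399 CPM on chromatin and 14190.0 to 17519 CPM in the cytoplasm. DIS3 RNA, which the degron is not meant to change, was lower in the DIS3-AID clone, averaging 45.8 ± 0.937 CPM with auxin and 50.1 ± 2.64 without it, against 93.1 ± 3.21 in control cells with auxin and 90.5 ± 2.58 in untreated control cells (cytoplasm total RNA, SD, n = 3 each). It does not check the loss of the protein. A pair of libraries stood apart for AP-1 genes in all 3 data sets. Replicate 3 of auxin-treated control cells had the lowest FOS, FOSB and ATF3 and the highest FOSL2 of its group in cytoplasm total and polyA RNA and on chromatin, and replicate 1 of untreated DIS3-AID cells had the highest FOS, FOSB and ATF3 of its group in each.

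FOSL1, which encodes FRA-1, was the most abundant AP-1 transcript in each of the 8 groups of total RNA. Levels were compared between genes per kilobase of annotated exon (CPM per kb). In the cytoplasm of untreated control cells FOSL1 had 160.3 ± 8.19 CPM per kb (SD, n = 3), followed by JUND with 111 ± 5.00 and JUNB with 74.0 ± 8.22, and these ranges did not overlap. FOSB had 35.0 ± 7.57 and JUN 33.9 ± 3.26 CPM per kb, and their libraries overlapped. ATF3 (19.1 ± 1.95), FOS (16.0 ± 3.26) and FOSL2 (15.0 ± 0.346) were lowest, each overlapping its neighbour in this order. In the cytoplasm of auxin-treated DIS3-AID cells the upper 3 places were the same, with FOSL1 at 138 ± 1.34, JUND at 56.4 ± 4.50 and JUNB at 29.5 ± 3.22 CPM per kb. FOSB at 4.92 ± 1.50 and FOS at 4.13 ± 0.552 CPM per kb then had the lowest means, after ATF3 at 6.63 ± 0.274, and each of the 3 overlapped its neighbour in this order.

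The share of FOSL1 in the summed level of the 8 genes was larger in DIS3-AID than in control cells, taken over group means and without a test. In the cytoplasm it was 53.5% in auxin-treated and 48.6% in untreated DIS3-AID cells, against 34.5% in auxin-treated and 34.5% in untreated control cells. The 3 JUN genes together made up 37.1% in auxin-treated and 40.7% in untreated DIS3-AID cells, against 44.1% in auxin-treated and 47.1% in untreated control cells. On chromatin FOSL1 made up 85.8% in auxin-treated and 82.7% in untreated DIS3-AID cells, against 76.7% and 73.6% in control cells with and without auxin. The order behind FOSL1 was another on chromatin. Lengths are those of exons alone, and whether intron reads were counted is not given. The chromatin order and shares may thus depend on the length used. In untreated control cells FOSL2 came next with 13.3 ± 0.956 CPM per kb, then ATF3 with 5.47 ± 0.536, then JUN and JUND with 2.51 ± 0.432 and 2.35 ± 0.439 CPM per kb, whose libraries overlapped. FOSB and FOS were lowest there, with 0.904 ± 0.184 and 0.813 ± 0.108 CPM per kb.

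**Figure D1:**
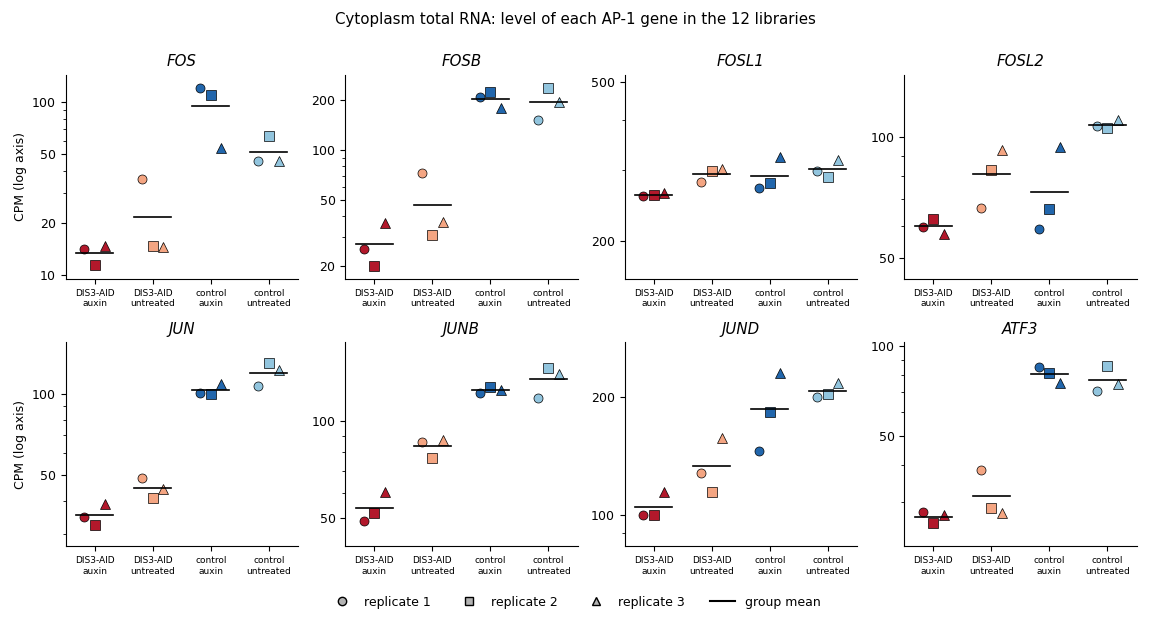
Level of each AP-1 gene (CPM, log axis) in the 12 libraries of cytoplasm total RNA. Points are single libraries with the shape giving the replicate, and lines are group means of 3. FOSL1 lies between 258 and 323 CPM in all groups, while the 3 untreated DIS3-AID libraries lie below the 3 untreated control libraries for the other 7 genes.

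Without auxin, untreated DIS3-AID cells already had less RNA of most AP-1 genes than control cells. Cytoplasmic FOSB was at 0.242 and JUN at 0.372 of the control level. In the cytoplasm 5 of 8 members were lower in untreated DIS3-AID cells and none was higher at an adjusted p under 0.05, where 22.1% of all 23027 tested features were called and 12.4% were lower. Among protein-coding genes 17.6% were lower. The median log2 ratio of the 8 genes was -0.97, against -0.01 over all features, and every DIS3-AID library was below every control library for 7 of 8 members, as for 21.5% of all features. On chromatin 6 of 8 were lower and none higher, where 32.5% of 24966 features were called and 17.4% were lower, or 21.9% of protein-coding genes. There the median was -0.78 against 0 over all features, and for all 8 members every DIS3-AID library was below every control library, as for 28.9% of protein-coding genes. The comparison gives levels of RNA in a fraction, where fewer transcribing cells and less RNA per cell cannot be told apart.

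JUN, JUNB and JUND encode the partners on which every AP-1 dimer with a FOS protein depends. JUN, the archetype of the family, had 48.6, 41.0 and 44.3 CPM in the 3 untreated DIS3-AID libraries of the cytoplasm, against 107, 129.7 and 123 in untreated control cells. Every DIS3-AID library was below every control library, and JUN was lower in the DIS3-AID cells (log2 ratio -1.43, SE 0.08, 95% interval -1.59 to -1.26, adjusted p = 8.1e-10). On chromatin JUN had 3.91, 3.18 and 2.45 CPM in DIS3-AID cells, against 7.78, 10.6 and 8.26 in control cells. That log2 ratio was -1.45, SE 0.19, 95% interval -1.85 to -1.05, adjusted p = 4.27e-05.

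JUNB, an immediate-early gene that often opposes JUN in growth control, had 86.2, 77.1 and 87.0 CPM in untreated DIS3-AID cytoplasm, against 118, 146 and 140.2 in untreated control cytoplasm. It was lower in DIS3-AID cells there (log2 ratio -0.69, SE 0.08, 95% interval -0.86 to -0.52, adjusted p = 1.22e-05). On chromatin the levels were 2.58, 2.19 and 2.39 CPM in DIS3-AID cells and 2.77, 3.86 and 2.80 CPM in control cells, with a log2 ratio of -0.36, SE 0.16, 95% interval -0.70 to -0.02, adjusted p = 0.101, which did not pass. JUND, the JUN gene that resting cells also express, had 129, 115 and 157 CPM in untreated DIS3-AID cytoplasm and 199.6, 203 and 217 CPM in untreated control cytoplasm. It was lower in DIS3-AID cells (log2 ratio -0.63, SE 0.16, 95% interval -0.98 to -0.28, adjusted p = 0.0161), a call that was kept without replicate 3 of untreated DIS3-AID cells or replicate 2 of untreated control cells (adjusted p = 0.0146 and 0.0393) and lost without any of the other 4 libraries (adjusted p up to 0.0895). On chromatin JUND had 3.06, 2.84 and 2.67 CPM in DIS3-AID cells and 4.05, 5.32 and 3.79 CPM in control cells (log2 ratio -0.59, SE 0.13, 95% interval -0.86 to -0.31, adjusted p = 0.0022).

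FOSB had the lowest log2 ratio between the lines of the 8 members in the cytoplasm. FOSB, an immediate-early partner of JUN proteins, had 73.2, 30.8 and 37.0 CPM in untreated DIS3-AID cytoplasm, against 153, 237 and 194 CPM in untreated control cytoplasm. Replicate 1 of the DIS3-AID cells was the highest of its group, and still below every control library. FOSB was lower in DIS3-AID cells (log2 ratio -2.05, SE 0.36, 95% interval -2.88 to -1.22, adjusted p = 0.00458). On chromatin it had 3.58, 1.97 and 1.76 CPM in DIS3-AID cells and 4.34, 6.19 and 4.53 CPM in control cells, and was lower (log2 ratio -0.98, SE 0.33, 95% interval -1.70 to -0.25, adjusted p = 0.0412). That call was kept without replicate 1 of untreated DIS3-AID cells (log2 ratio -1.39, adjusted p = 0.0166) or replicate 1 of untreated control cells (-1.07, 0.0475) and lost without any of the other 4 libraries (adjusted p up to 0.177).

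FOS, the founding member and a standard readout of growth factor signalling, had 35.9, 14.8 and 14.6 CPM in untreated DIS3-AID cytoplasm and 45.6, 63.9 and 45.7 CPM in untreated control cytoplasm. The DIS3-AID libraries were lower without overlap, but 1 of them was far above the other two, and the log2 ratio of -1.25, SE 0.42, 95% interval -2.21 to -0.28, adjusted p = 0.0705 did not pass. Without that library, replicate 1 of untreated DIS3-AID cells, the log2 ratio was -1.80 with an adjusted p of 0.0134. On chromatin FOS had 1.90, 1.47 and 1.05 CPM in DIS3-AID cells, against 2.66, 2.97 and 2.27 CPM in control cells, and was lower (log2 ratio -0.78, SE 0.26, 95% interval -1.34 to -0.22, adjusted p = 0.035). That call was kept without replicate 1 of untreated DIS3-AID cells (-1.02, adjusted p = 0.019) or replicate 3 of untreated control cells (-0.89, 0.0441) and lost without any of the other 4 libraries (adjusted p up to 0.109).

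FOSL2 differed between the lines on chromatin. FOSL2, which encodes FRA-2, had 42.9, 53.6 and 50.6 CPM on the chromatin of untreated DIS3-AID cells, against 91.2, 103 and 91.4 CPM in untreated control cells, and was lower (log2 ratio -0.96, SE 0.08, 95% interval -1.12 to -0.79, adjusted p = 6.81e-08). In the cytoplasm it had 66.6, 82.8 and 93.1 CPM in DIS3-AID cells and 106, 106 and 110.4 CPM in control cells, and the log2 ratio of -0.41, SE 0.16, 95% interval -0.77 to -0.05, adjusted p = 0.1 did not pass. FOSL1 had 280.3, 299 and 302 CPM in untreated DIS3-AID cytoplasm and 299, 289 and 319 CPM in untreated control cytoplasm. These groups overlapped, and the 95% interval of the log2 ratio, -0.17 to 0.08 around -0.04, spans 0 (adjusted p = 0.667). On chromatin FOSL1 had 133, 136 and 129 CPM in DIS3-AID cells, against 139, 147 and 142 CPM in control cells, a log2 ratio of -0.10, SE 0.05, 95% interval -0.21 to 0.01, adjusted p = 0.169, which did not pass.

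ATF3, the stress-induced member, was lower in the DIS3-AID clone in each data set. In untreated DIS3-AID cytoplasm it had 38.3, 28.7 and 27.5 CPM, against 70.6, 85.8 and 74.6 CPM in untreated control cytoplasm (log2 ratio -1.29, SE 0.11, 95% interval -1.52 to -1.06, adjusted p = 1.45e-06). On chromatin it had 14.7, 12.9 and 10.9 CPM in DIS3-AID cells, against 22.7, 23.9 and 19.7 CPM in control cells (log2 ratio -0.77, SE 0.15, 95% interval -1.09 to -0.45, adjusted p = 0.00127). The polyA tables hold 53 of 6382 protein-coding genes whose transcript models are all coding, and 13256 of 13380 with a non-coding model. PolyA values of the members thus seem to come from their non-coding models alone, and their levels were not set against those of total RNA. In polyA RNA 2 of 4 members were lower in untreated DIS3-AID cells, where 11.9% of 16651 features were called and 5.65% were lower. ATF3 had 85.6, 65.7 and 64.5 CPM in DIS3-AID cells, against 163, 198 and 171 CPM in control cells (log2 ratio -1.30, SE 0.11, 95% interval -1.55 to -1.05, adjusted p = 2.36e-05). FOSB had 35.2, 12.9 and 13.5 CPM in DIS3-AID cells and 63.4, 88.5 and 66.8 CPM in control cells (log2 ratio -1.82, SE 0.41, 95% interval -2.77 to -0.87, adjusted p = 0.0242). The FOSB call was kept without replicate 1 of untreated DIS3-AID cells (-2.48, adjusted p = 0.00494) or replicate 1 of untreated control cells (-1.92, 0.0374) and lost without any of the other 4 libraries (adjusted p up to 0.0882). FOS at 4.67 ± 2.50 CPM in DIS3-AID cells and 7.65 ± 1.32 CPM in control cells, and FOSL2 at 18.2 ± 3.88 and 22.3 ± 1.60 CPM in the same order, did not pass (log2 ratios -0.70, adjusted p = 0.337 and -0.29, adjusted p = 0.493).

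**Figure D2:**
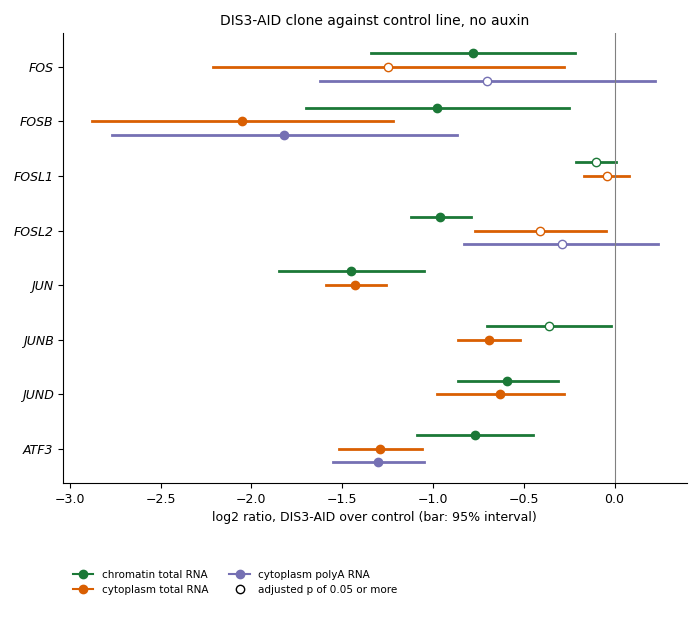
Log2 ratio of untreated DIS3-AID over untreated control cells for each AP-1 gene in the data sets where it was counted. Points are edgeR estimates with 95% intervals, filled where the adjusted p was under 0.05. All estimates lie below 0, and FOSL1 lies nearest to it with -0.10 on chromatin and -0.04 in cytoplasm total RNA.

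AP-1 transcripts also changed after auxin on the chromatin of control cells, which carry no degron. This comparison asks what 1 h of auxin does where DIS3 is not tagged. The untreated control libraries are also those against which the DIS3-AID clone was set above. On chromatin 4 of 8 members rose and 1 fell in control cells, where 17.0% of features were called, 9.02% higher and 7.97% lower. The median log2 ratio of the members was 0.50, against 0.01 over all features, and 4 of 8 members had groups that did not overlap, as did 33.2% of all features.

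The rises were in FOSL1, FOSB, JUND and ATF3. FOSL1 had 200.5, 184 and 188 CPM with auxin, against 139, 147 and 142 CPM without (log2 ratio 0.42, SE 0.05, 95% interval 0.31 to 0.54, adjusted p = 5.16e-05). JUND had 7.07, 6.23 and 6.41 CPM with auxin, against 4.05, 5.32 and 3.79 CPM without (log2 ratio 0.61, SE 0.12, 95% interval 0.35 to 0.87, adjusted p = 0.00208). Both of these genes had every auxin library above every untreated one. ATF3 had 38.9, 35.4 and 24.2 CPM with auxin and 22.7, 23.9 and 19.7 CPM without (log2 ratio 0.58, SE 0.14, 95% interval 0.27 to 0.89, adjusted p = 0.013). Replicate 3 of the auxin-treated cells lay just above the untreated range. The ATF3 call was lost without replicate 3 of untreated control cells (0.50, adjusted p = 0.0686), replicate 1 of auxin-treated control cells (0.44, 0.0534) or replicate 2 of them (0.52, 0.0652), and without replicate 3 of auxin-treated cells it was 0.76 with an adjusted p of 2.04e-05.

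FOSB had 13.7, 10.8 and 5.93 CPM on chromatin with auxin, against 4.34, 6.19 and 4.53 CPM without. Replicate 3 of the auxin-treated cells fell within the untreated range, and FOSB rose by the test (log2 ratio 1.06, SE 0.30, 95% interval 0.41 to 1.71, adjusted p = 0.0314). The call was kept without replicate 3 of auxin-treated cells (1.32, adjusted p = 0.0028) or replicate 2 of untreated cells (1.21, 0.0344) and lost without any of the other 4 libraries (adjusted p up to 0.125). FOS had 5.29, 4.52 and 2.35 CPM with auxin and 2.66, 2.97 and 2.27 CPM without, again with replicate 3 of the auxin-treated cells among the untreated ones. Its log2 ratio of 0.67, SE 0.24, 95% interval 0.16 to 1.18, adjusted p = 0.0686 did not pass, and without that library it was 0.92 with an adjusted p of 0.000402.

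FOSL2 fell, with 80.1, 73.6 and 89.0 CPM on the chromatin of auxin-treated control cells, against 91.2, 103 and 91.4 CPM in untreated ones (log2 ratio -0.23, SE 0.08, 95% interval -0.40 to -0.07, adjusted p = 0.0467). That call was kept without replicate 3 of auxin-treated cells (-0.31, adjusted p = 0.00745) and lost without any of the other 5 libraries (adjusted p up to 0.211). JUN had 10.5 ± 2.31 CPM with auxin and 8.89 ± 1.53 CPM without, and JUNB 3.03 ± 0.735 and 3.14 ± 0.621 CPM in that order. Neither passed (log2 ratios 0.26, adjusted p = 0.345 and -0.01, adjusted p = 0.973).

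In the cytoplasm of control cells 0 of 8 members passed after auxin, where 0.0478% of features were called. At an unadjusted p under 0.05 there were 2 members, FOSL2 and JUN, among 1413 features, and DESeq2 called 0 members. FOS had 121, 110.0 and 54.7 CPM with auxin and 45.6, 63.9 and 45.7 CPM without, with replicate 3 inside the untreated range (log2 ratio 0.88, SE 0.41, 95% interval -0.06 to 1.82, adjusted p = 0.836). FOSL2 had 58.9, 66.2 and 94.7 CPM with auxin and 106, 106 and 110.4 CPM without (log2 ratio -0.56, SE 0.16, 95% interval -0.92 to -0.19, adjusted p = 0.513). Every auxin library was below every untreated one, and without replicate 3 of the auxin-treated cells, the highest, FOSL2 was lower at -0.78 with an adjusted p of 0.00769. FOSB, FOSL1, JUN, JUNB, JUND and ATF3 had log2 ratios of 0.07, -0.05, -0.22, -0.11, -0.15 and 0.06. In polyA RNA 0 of 4 members passed, where 0.0480% of features were called. At an unadjusted p under 0.05 there was 1 member, FOS (log2 ratio 0.96, SE 0.36, 95% interval 0.14 to 1.77, adjusted p = 0.882), among 871 features, and DESeq2 called 0.

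**Figure D3:**
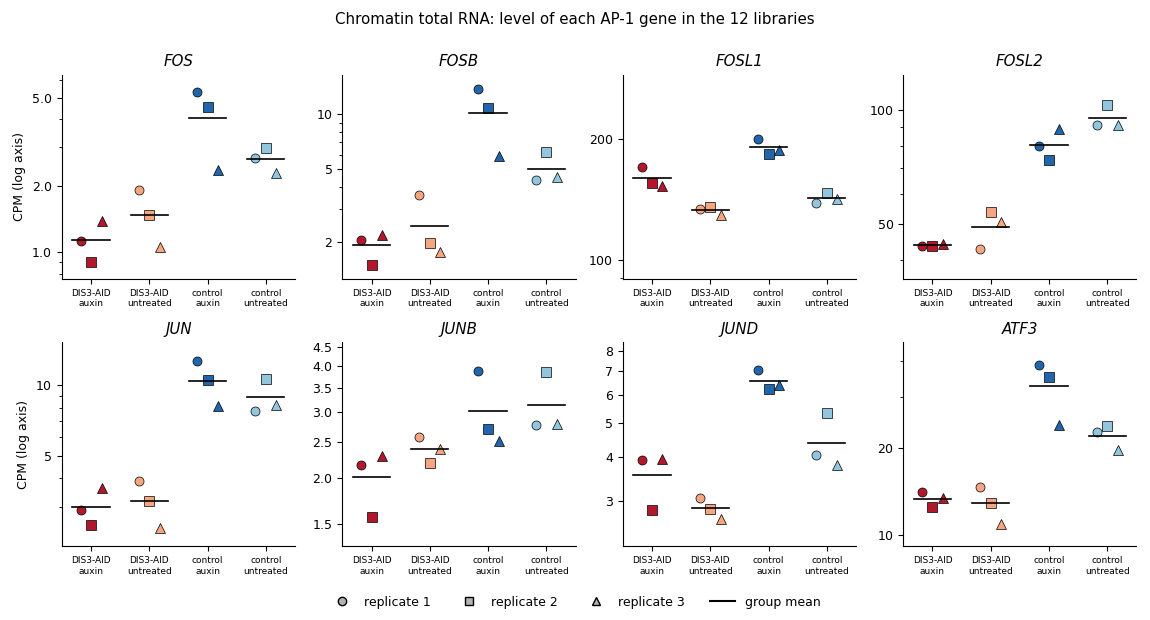
Level of each AP-1 gene (CPM, log axis) in the 12 libraries of chromatin total RNA, drawn as for the cytoplasm. All 3 auxin-treated control libraries lie above the untreated control libraries for FOSL1, JUND and ATF3, and replicate 3 of the auxin-treated control cells is the lowest of its group for FOS, FOSB and ATF3.

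JUNB, JUN and FOSL1 fell in the cytoplasm of DIS3-AID cells after auxin. The untreated DIS3-AID libraries used here are also those of the comparison of lines. In this comparison 3 of 8 members fell and none rose, where 34.3% of features were called, 13.2% lower. Among protein-coding genes 20.0% were lower. The median log2 ratio of the members was -0.38, against -0.05 over all features and -0.10 over protein-coding genes. For 5 of 8 members, FOSL1, FOSL2, JUN, JUNB and JUND, every auxin library was below every untreated one, as for 19.0% of all features and 27.8% of protein-coding genes. FOSL2 and JUND did not pass the test.

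JUNB had the lowest adjusted p of the 3. It had 49.1, 51.8 and 60.3 CPM in auxin-treated DIS3-AID cytoplasm, against 86.2, 77.1 and 87.0 CPM in untreated DIS3-AID cytoplasm (log2 ratio -0.63, SE 0.08, 95% interval -0.81 to -0.46, adjusted p = 5.39e-06). JUN had 34.9, 32.5 and 38.8 CPM with auxin and 48.6, 41.0 and 44.3 CPM without (log2 ratio -0.33, SE 0.08, 95% interval -0.50 to -0.17, adjusted p = 0.00271). The JUN call was lost without replicate 1 of untreated cells (-0.25, adjusted p = 0.0503), without replicate 2 of auxin-treated cells (-0.24, 0.0513) and with library sizes alone as the scaling (-0.23, 0.0598). FOSL1 fell by a small amount, with 258, 261 and 263 CPM with auxin and 280.3, 299 and 302 CPM without (log2 ratio -0.17, SE 0.06, 95% interval -0.30 to -0.05, adjusted p = 0.0342). That call was kept without replicate 1 of untreated cells (adjusted p = 0.0478), lost without any of the other 5 libraries (adjusted p up to 0.162), and lost with library sizes alone (-0.07, 0.451) or factors from protein-coding genes (-0.08, 0.348).

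The other members did not pass in that cytoplasm. FOSL2 had 59.7, 62.5 and 57.5 CPM with auxin and 66.6, 82.8 and 93.1 CPM without (log2 ratio -0.43, SE 0.16, 95% interval -0.80 to -0.07, adjusted p = 0.0659). Without replicate 1 of untreated cells, the lowest of its group, FOSL2 was lower at -0.54 with an adjusted p of 0.0255. FOS had 14.1, 11.3 and 14.7 CPM with auxin and 35.9, 14.8 and 14.6 CPM without (log2 ratio -0.70, SE 0.44, 95% interval -1.70 to 0.30, adjusted p = 0.25). FOSB had 25.5, 20.1 and 36.4 CPM with auxin and 73.2, 30.8 and 37.0 CPM without (log2 ratio -0.78, SE 0.36, 95% interval -1.60 to 0.05, adjusted p = 0.131). Both groups overlapped for these immediate-early genes, and the untreated replicate 1 was far above the other two. JUND had 100.4, 100.1 and 115 CPM with auxin and 129, 115 and 157 CPM without (log2 ratio -0.34, adjusted p = 0.116), and ATF3 26.8 ± 1.11 and 31.5 ± 5.92 CPM in that order (log2 ratio -0.23, adjusted p = 0.111).

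On the chromatin of DIS3-AID cells 1 of 8 members rose after auxin and none fell, where 20.5% of features were called, 11.0% higher. FOSL1 had 170.2, 156 and 153 CPM with auxin, against 133, 136 and 129 CPM without (log2 ratio 0.27, SE 0.05, 95% interval 0.15 to 0.38, adjusted p = 0.00175). All 3 auxin libraries were above all 3 untreated ones. JUND had 3.91, 2.82 and 3.94 CPM with auxin and 3.06, 2.84 and 2.67 CPM without, a log2 ratio of 0.32, SE 0.14, 95% interval 0.03 to 0.61, adjusted p = 0.114. Without replicate 2 of auxin-treated cells JUND was higher at 0.45 with an adjusted p of 0.0351. FOSL2 had 43.7, 43.7 and 44.1 CPM with auxin and 42.9, 53.6 and 50.6 CPM without (log2 ratio -0.16, adjusted p = 0.175), and without replicate 1 of untreated cells it was lower at -0.25 with an adjusted p of 0.0234. FOS, FOSB, JUN, JUNB and ATF3 had log2 ratios of -0.40, -0.38, -0.09, -0.24 and 0.05, and their groups overlapped. In polyA RNA 0 of 4 members passed, where 17.0% of features were called. There were 0 members at an unadjusted p under 0.05 among 4270 features, and DESeq2 called 0. The log2 ratios were -0.65 for FOS, -0.60 for FOSB, -0.42 for FOSL2 and -0.23 for ATF3.

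**Figure D4:**
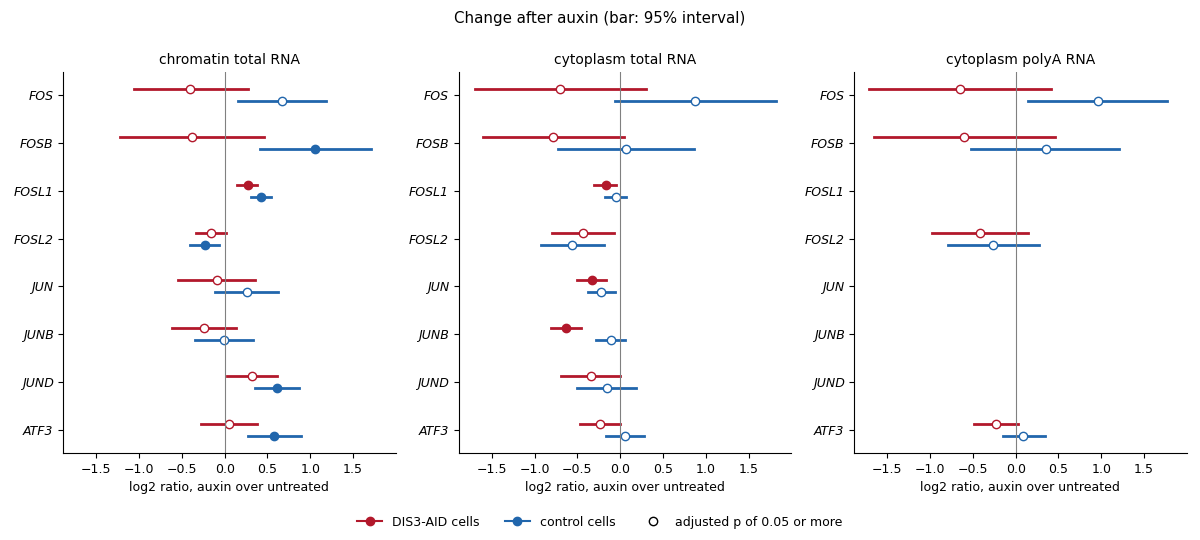
Log2 ratio of auxin-treated over untreated cells for each AP-1 gene, DIS3-AID cells and control cells apart, in 3 panels for chromatin total RNA, cytoplasm total RNA and cytoplasm polyA RNA. Points are edgeR estimates with 95% intervals, filled where the adjusted p was under 0.05. On chromatin FOSL1 is above 0 in DIS3-AID and control cells (0.27 and 0.42), and in the cytoplasm JUNB is filled for DIS3-AID cells only (-0.63, against -0.11 in control cells).

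The test that sets one line's auxin response against the other's called JUNB in the cytoplasm. Its log2 ratio after auxin was -0.63 in DIS3-AID cells and -0.11 in control cells, a difference of -0.52, SE 0.11, 95% interval -0.76 to -0.28, adjusted p = 0.0024. JUNB was the 1 member of 8 called, where 19.4% of features were called and 3.31% were lower. The cytoplasmic differences of the other 7 did not pass. They were -1.58 for FOS (adjusted p = 0.113), -0.85 for FOSB, -0.12 for FOSL1, 0.12 for FOSL2, -0.12 for JUN, -0.19 for JUND and -0.29 for ATF3.

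On chromatin 0 of 8 differences passed, where 17.7% of features were called and 9.20% were lower. At an unadjusted p under 0.05 there were 3 members, FOS, FOSB and ATF3, among 7871 features, and DESeq2 called 2. FOS had a log2 ratio of -0.40 in DIS3-AID cells and 0.67 in control cells, a difference of -1.07, SE 0.39, 95% interval -1.90 to -0.23, adjusted p = 0.0743. FOSB had -0.38 in DIS3-AID cells and 1.06 in control cells, a difference of -1.44, SE 0.48, 95% interval -2.50 to -0.38, adjusted p = 0.0621. ATF3 had 0.05 and 0.58 in the same order, a difference of -0.53, SE 0.21, 95% interval -0.98 to -0.08, adjusted p = 0.0975. Without replicate 3 of auxin-treated control cells, the library with the lowest values of all 3 genes in its group, the differences were -1.32 for FOS, -1.71 for FOSB and -0.71 for ATF3 (adjusted p = 0.00104, 0.00895 and 0.00104). Without replicate 3 of untreated DIS3-AID cells FOS was -1.24 and FOSB -1.61 (adjusted p = 0.0364 and 0.0419). No other omission of 1 of the 12 libraries gave a call for these genes. The adjusted p then reached up to 0.185 for FOS, 0.187 for FOSB and 0.204 for ATF3. In polyA RNA 0 of 4 differences passed, where 5.84% of features were called, with FOS at -1.61, adjusted p = 0.188. At an unadjusted p under 0.05 there was 1 member among 2900 features, and DESeq2 called 0.

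AP-1 transcripts took a smaller share of the chromatin libraries than of the cytoplasm libraries. In untreated cells, 8 of 8 members were lower on chromatin than in the cytoplasm in the DIS3-AID line and 8 of 8 in the control line. Of all 27418 features, 89.3% were called in DIS3-AID cells, 43.2% lower on chromatin, and 90.2% in control cells, 44.0% lower. These ratios compare shares of 2 kinds of library and not molecules per cell. The median log2 ratio of the members was -4.46 in DIS3-AID cells and -4.69 in control cells, against 0.14 and 0.10 over all features and -0.46 and -0.56 over protein-coding genes.

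The 8 genes fell into a pair of ranges. JUND, JUNB, FOSB, FOS and JUN had log2 ratios between -6.17 and -4.42 in DIS3-AID cells, and between -6.23 and -4.41 in control cells. JUND had 2.33 ± 0.159 CPM on chromatin and 169 ± 25.5 CPM in cytoplasm of untreated DIS3-AID cells, with both fractions on one scale (log2 ratio -6.17, SE 0.18, 95% interval -6.54 to -5.80, adjusted p = 8.95e-18). In untreated control cells it had 3.58 ± 0.666 CPM on chromatin and 263 ± 6.70 CPM in cytoplasm (log2 ratio -6.23, SE 0.17, 95% interval -6.59 to -5.87, adjusted p = 4.37e-18). ATF3, FOSL1 and FOSL2 were nearer to even. Annotated exons cover 4040 of 55444 bases of ATF3, 1887 of 8525 of FOSL1 and 7157 of 24865 of FOSL2. Among JUND, JUNB, FOSB, FOS and JUN they cover from 5553 of 7185 bases in FOSB to all 3540 in JUN. Whether reads from introns or unspliced RNA bear on the 2 ranges was not tested. FOSL1 was at -1.78, SE 0.06, 95% interval -1.90 to -1.66, adjusted p = 4.89e-27 in DIS3-AID cells and -1.73, SE 0.06, 95% interval -1.85 to -1.61, adjusted p = 1.14e-26 in control cells. ATF3 was at -1.93, SE 0.17, 95% interval -2.28 to -1.57, adjusted p = 2.95e-09 in DIS3-AID cells and -2.44, SE 0.16, 95% interval -2.79 to -2.10, adjusted p = 5.45e-11 in control cells.

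FOSL2 had the log2 ratio nearest to 0. It had 34.9, 43.9 and 41.3 CPM on chromatin, against 85.1, 106 and 117 CPM in the cytoplasm of untreated DIS3-AID cells (log2 ratio -1.36, SE 0.12, 95% interval -1.62 to -1.10, adjusted p = 1.42e-09). In untreated control cells it had 74.2, 84.1 and 74.7 CPM on chromatin, against 139, 134 and 137 CPM in the cytoplasm (log2 ratio -0.82, SE 0.12, 95% interval -1.07 to -0.56, adjusted p = 2.32e-06). These fraction ratios depend on the scaling. With library sizes alone the median of all features moved to 0.82 in DIS3-AID cells and 0.76 in control cells, and FOSL2 was then at -0.67 in DIS3-AID cells (adjusted p = 0.000182) and -0.15 in control cells, where the call was lost (adjusted p = 0.284).

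**Figure D5:**
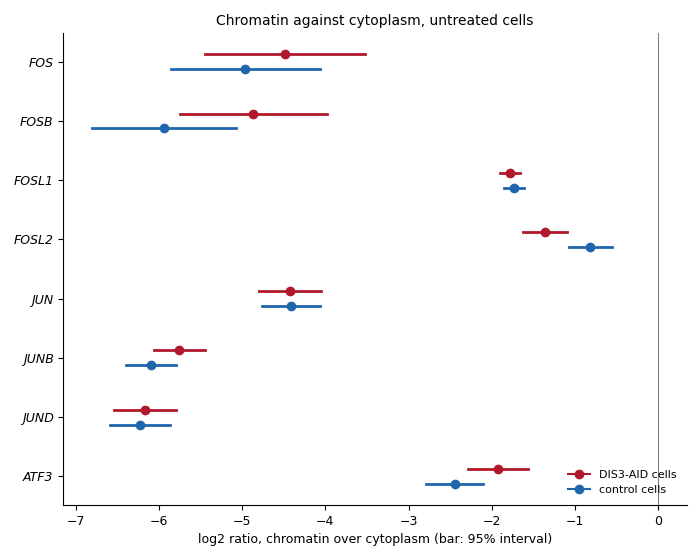
Log2 ratio of chromatin over cytoplasm for each AP-1 gene in untreated DIS3-AID and untreated control cells, both total RNA data sets scaled together. Points are edgeR estimates with 95% intervals, and all have an adjusted p under 0.05. FOSL2 lies nearest to 0 (-1.36 in DIS3-AID cells and -0.82 in control cells), and JUND farthest from it (-6.17 and -6.23).

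The auxin response of DIS3-AID cells was also set against itself between fractions. On this common scale the chromatin response was higher than the cytoplasmic one for 3 of 8 members, where 33.1% of features were called and 22.1% were higher. Among protein-coding genes 36.3% were higher, so the count of 3 members is near the background. The median of the members was 0.52, against 0.16 over all features and 0.23 over protein-coding genes. FOSL1 had the lowest adjusted p, with a difference of 0.62, SE 0.08, 95% interval 0.45 to 0.79, adjusted p = 2.04e-07. JUND differed by 0.84, SE 0.23, 95% interval 0.36 to 1.33, adjusted p = 0.00859, and JUNB by 0.57, SE 0.21, 95% interval 0.14 to 1.01, adjusted p = 0.0384. The JUNB call was kept without 4 of the 12 libraries, namely replicate 2 of untreated and replicate 3 of auxin-treated cytoplasm and replicate 1 of untreated and replicate 2 of auxin-treated chromatin, and lost without any of the other 8 (adjusted p up to 0.127). FOSL2 was at 0.45, adjusted p = 0.0515, and passed without replicate 1 of untreated cytoplasm (0.57, adjusted p = 0.00665) or replicate 2 of untreated chromatin (0.53, 0.0364). With library sizes alone the median of all features moved to -0.17, and JUNB (0.24, adjusted p = 0.534) and JUND (0.51, 0.187) were no longer called, nor were they with factors from protein-coding genes (adjusted p = 0.218 and 0.0585). FOSL1 stayed called at 0.29 (adjusted p = 0.00963) with library sizes alone.

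Of the annotated features that overlap a member or lie within 5 kb of one, 9 passed the filter in total RNA. A pair of long non-coding RNAs next to members rose in the cytoplasm of DIS3-AID cells after auxin. There 21.1% of all features and 7.25% of protein-coding genes were higher, so such rises were not particular to features beside AP-1 genes. LINC01135 starts 801 bases from the start of JUN and runs the other way (chromosome 1, 58785128 to 58901105, plus strand). Its cytoplasmic level was 3.63 ± 0.277 CPM in DIS3-AID cells with auxin and 0.834 ± 0.229 CPM in those without it (SD, n = 3 each, log2 ratio 2.14, SE 0.17, adjusted p = 4.84e-09). On chromatin it had 7.01 ± 0.361 CPM with auxin and 7.40 ± 0.334 CPM without in DIS3-AID cells (log2 ratio -0.08, SE 0.08, adjusted p = 0.52). In the cytoplasm of control cells it had 0.874 ± 0.0443 CPM with auxin and 0.864 ± 0.219 CPM without, and did not pass (log2 ratio 0.01, SE 0.19, adjusted p = 0.998).

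FOSL2-AS1 overlaps FOSL2 on the opposite strand without sharing an exon (chromosome 2, 28384409 to 28394672). Its cytoplasmic level was 2.97 ± 0.165 CPM in DIS3-AID cells with auxin and 0.543 ± 0.0123 CPM in those without it (log2 ratio 2.45, SE 0.18, adjusted p = 1.7e-09). It rose on chromatin too, to 0.422 ± 0.0809 CPM with auxin, against 0.0652 ± 0.0191 CPM without (log2 ratio 2.72, SE 0.38, adjusted p = 4.8e-05). In control cells it did not pass in either fraction (log2 ratio -0.52, SE 0.21, adjusted p = 0.752 in the cytoplasm and -0.40, SE 0.35, adjusted p = 0.477 on chromatin). On untreated chromatin FOSL2-AS1 was lower in DIS3-AID than in control cells (log2 ratio -1.68, SE 0.41, adjusted p = 0.00385). AC104695.3, inside an intron of FOSL2 on its strand, was also lower there (log2 ratio -1.55, SE 0.15, adjusted p = 6.09e-07). Whether the counting used strand is not given in the sources used here, so reads of FOSL2 and FOSL2-AS1 in the stretch they share cannot be told apart with certainty.

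HOOK2 overlaps an exon of JUNB on the opposite strand and was not called after auxin in DIS3-AID cytoplasm (log2 ratio -0.11, SE 0.04, adjusted p = 0.0591) or between the untreated lines there (log2 ratio 0.05, SE 0.04, adjusted p = 0.485), where JUNB was lower in both comparisons. PRDX2, next to JUNB, fell after auxin in DIS3-AID cytoplasm (log2 ratio -0.14, SE 0.04, adjusted p = 0.0242). ERCC1, which spans FOSB on the opposite strand, rose on control chromatin after auxin (log2 ratio 0.34, SE 0.07, adjusted p = 0.00198). Its chromatin difference of responses was lower (-0.30, adjusted p = 0.0368), and it was higher in untreated DIS3-AID polyA RNA (0.16, adjusted p = 0.0359). The limit on strand given for FOSL2-AS1 also holds for ERCC1 with FOSB and HOOK2 with JUNB. FIBP and CCDC85B beside FOSL1 and AC018761.2 beside JUNB were not called in the comparisons of auxin or of lines.

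The AP-1 system has other parts, described here by lists of related genes. The lists were chosen with earlier results of these data known, so their counts are a description and no test of AP-1 activity. Of 18 genes that AP-1 is known to switch on in epithelial cells, 17 were tested in the cytoplasm, and 14 fell after auxin in DIS3-AID cells with none higher, where 20.0% of protein-coding genes were lower. Their median log2 ratio was -0.39, against -0.05 over all features. CXCL8, the neutrophil chemokine, was at -0.97, adjusted p = 0.0133. CCN1, a matrix-associated growth regulator, was at -0.75, adjusted p = 0.000826, HBEGF, an EGF receptor ligand, at -0.65, adjusted p = 3.96e-05, and PLAU, the urokinase protease, at -0.63, adjusted p = 0.00101. On DIS3-AID chromatin 6 of 15 fell and none rose, where 13.4% of protein-coding genes were lower. Among the 6 was AREG, an EGF receptor ligand, at -0.57, adjusted p = 2.76e-05. In control cells after auxin, 0 of 17 passed in the cytoplasm, where only 0.0347% of protein-coding genes were called. On control chromatin 2 of 15 fell, where 10.3% of protein-coding genes were lower, PLAU at -0.55, adjusted p = 0.000417 and AREG at -0.29, adjusted p = 0.00751. Set directly against the control response, the cytoplasmic response of DIS3-AID cells was lower for 4 of 17 and higher for none. There 4.91% of protein-coding genes were lower. On chromatin that difference was lower for 3 of 15 and higher for none, where 12.5% of protein-coding genes were lower. Between the untreated lines, 3 of 17 were lower and 4 higher in DIS3-AID cytoplasm, where 17.6% of protein-coding genes were lower and 8.36% higher. On chromatin 8 of 15 were lower and 3 higher, where 21.9% of protein-coding genes were lower and 16.8% higher, with AREG at -1.49, adjusted p = 3.56e-11 and CCN1 at -1.03, adjusted p = 1.14e-06. In polyA RNA 7 of 14 fell after auxin in DIS3-AID cells, where 6.10% of protein-coding genes were lower. The difference from the control response was lower there for 2 of 14, where 1.54% of protein-coding genes were lower.

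The list of RNA decay factors that act on AU-rich elements had 17 genes, all tested. After auxin in DIS3-AID cytoplasm 4 were lower and 1 higher, near the 20.0% lower and 7.25% higher of protein-coding genes, and their median of -0.12 was near the -0.10 of those genes. Between the untreated lines 4 were lower and none higher in the cytoplasm and likewise on chromatin, also near the shares of protein-coding genes that were lower there (17.6% and 21.9%). ZFP36 encodes tristetraprolin, which brings deadenylases to the mRNAs of immediate-early genes. It was lower in DIS3-AID cells without auxin, at -0.94, adjusted p = 7.94e-05 in the cytoplasm and -0.90, adjusted p = 4.31e-05 on chromatin, and fell after auxin in DIS3-AID cytoplasm at -0.53, adjusted p = 0.00281. After auxin in control cells none of the 17 passed in either fraction. Of protein-coding genes, 0.0347% were called there in the cytoplasm and 20.9% on chromatin.

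Kinases and promoter factors upstream of the AP-1 genes made up a further 17, all tested. After auxin on control chromatin 5 rose and 4 fell, where 10.6% of protein-coding genes were higher and 10.3% lower, and their median of 0.02 was near the 0.01 of all features. SRF, the serum response factor that binds the FOS promoter, was at 0.48, adjusted p = 0.00171 and MAP2K1, the kinase MEK1, at -0.34, adjusted p = 0.0038. Between the untreated lines on chromatin 3 were higher and 3 lower in DIS3-AID cells, close to the 16.8% and 21.9% of protein-coding genes, with SRF at -0.53, adjusted p = 0.000348. In DIS3-AID cytoplasm after auxin 2 were lower, a share below the 20.0% of protein-coding genes, MEF2D at -0.30, adjusted p = 0.0351 and ELK4 at -0.15, adjusted p = 0.0316. Of 18 other genes of the leucine zipper family, 16 were tested in the cytoplasm and 15 on chromatin. After auxin on control chromatin 5 rose, among them the small MAF genes MAFF at 0.66, adjusted p = 0.00024 and MAFK at 0.55, adjusted p = 0.0197, and 3 fell. In DIS3-AID cytoplasm after auxin 2 fell, again a share below that of protein-coding genes, NFE2L1 at -0.39, adjusted p = 0.000227 and ATF2 at -0.22, adjusted p = 0.0204. Of the 16 in the cytoplasm 1 was lower and 1 higher in untreated DIS3-AID than in untreated control cells, where 17.6% of protein-coding genes were lower and 8.36% higher. Of the 15 on chromatin 4 were lower and 1 higher, where 21.9% of protein-coding genes were lower and 16.8% higher. ATF2, a partner of JUN, was among the lower ones, at -0.42, adjusted p = 0.00029 in the cytoplasm and -0.47, adjusted p = 0.00235 on chromatin.

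For each member the feature with the most similar level over the 12 libraries of a data set was found by Pearson's r of log2 CPM. The libraries fall into 2 lines and share scaling, so r describes likeness in these libraries and carries no test. In the cytoplasm FOS was most like DUSP1 (r = 0.98), a phosphatase gene that growth factors also induce. FOSB was most like ZFP36 (r = 0.993), and FOSL2 most like NAB2 (r = 0.963), a corepressor of EGR proteins. JUN was nearest RNF145 (r = 0.991), JUNB nearest HUWE1 (r = 0.985), JUND nearest VASH1 (r = 0.998), ATF3 nearest OTULIN (r = 0.991) and FOSL1 nearest COL9A3 (r = 0.95). On chromatin both FOSB and ATF3 were most like VCL, the vinculin gene, with r of 0.986 and 0.991. FOS was nearest TENT5B (r = 0.987), FOSL1 nearest LIMA1 (r = 0.983), FOSL2 nearest LIMS2 (r = 0.993), JUN nearest CYSTM1 (r = 0.988), JUND nearest MYADM (r = 0.957) and JUNB nearest PTMA (r = 0.924).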

How the data were processed

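The 36 tables hold counts per feature as deposited by the authors, whole numbers in every table. The submitters' processing notes name the hg38 build with featureCounts 2.0.0, STAR 2.7.3a and Cufflinks 2.2.1. The parameters, and whether a stranded kit was counted by strand, are not given in the sources used here. Each data set of 12 libraries was filtered (filterByExpr, min.count 10), scaled by TMM and fitted with edgeR 4.0.16 in R 4.3.3 (robust quasi-likelihood F test, 1 coefficient per group, Benjamini-Hochberg over all features tested, threshold 0.05). Comparisons across fractions used 1 fit of all 24 total RNA libraries. Levels are CPM on TMM-adjusted library sizes, so a rise of one abundant class lowers the rest. Gene positions and exon lengths came from GENCODE 29, promoters from RefSeq.

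Because triplicates of the cytoplasm are called technical in the labels, the p-values reflect spread among these libraries alone, which may be technical. No 2 libraries of a group agreed within sampling noise (chi-square per degree of freedom 2.61 to 40.89). The members and lists were chosen with earlier results of these data known. All 8 members, the features within 5 kb of them, at most 4 called genes per list and comparison and the 1 most similar feature per member were eligible to be named. Alternatives were other scalings, no filter, DESeq2 1.42.0, the compared groups alone, a replicate block and leaving out each library. Data were simulated from the cytoplasm total RNA libraries, with 200 of 23027 features changed by 1 on the log2 scale, up or down. All 200 had a mean above 1 CPM. The test recovered 99% of them, with 9 false calls. In simulated polyA RNA it recovered 95%, with 16 false calls. Smaller changes, such as many of those of the members, were not simulated. Intervals cover the fitted spread between libraries.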

Additional observations from a re-analysis of the deposited data

Results flagged for a closer look

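JUNB differed between the lines in its cytoplasmic response to auxin by -0.52 on the log2 scale (adjusted p = 0.0024, edgeR), with every auxin library of DIS3-AID cells below every untreated one.

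The auxin response of DIS3-AID cells was higher on chromatin than in the cytoplasm by 0.62 for FOSL1, 0.57 for JUNB and 0.84 for JUND (log2, adjusted p = 2.04e-07, 0.0384 and 0.00859, edgeR). FOSL1 was the one of these 3 that stayed called with library sizes alone as the scaling.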

How the results depend on the processing

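Over the single members, the alternatives other than leaving out a library kept direction and call in 652 results, gained a call in 35, lost one in 19 and reversed 2. Leaving out 1 library did so in 721, 13, 43 and 15 results in the same order. 

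Counts of members called moved as follows, and the cause was not tested. For auxin in DIS3-AID cytoplasm the count of 3 was 1 with library sizes alone and 8 with no filter on low counts. For auxin in control cytoplasm 0 became 3 with no filter. FOS there had an adjusted p of 2.81e-40 with no filter and 0.836 in the main fit (edgeR). Its log2 ratio was 0.88 in the main fit and 0.81 to 0.90 over these alternatives. The p-values thus fell with little change in the ratio, and the no-filter counts are not read as further members that changed. For the difference of the lines' responses in the cytoplasm 1 became 4 with no filter and 2 with DESeq2, and on chromatin 0 became 2 with DESeq2 and 3 with the replicate block. In polyA RNA, auxin in DIS3-AID cells gave 1 with no filter or with only the groups compared, the difference of responses gave 1 with no filter, and the lines gave 1 with only the groups compared. For the auxin effect on DIS3-AID chromatin minus that in cytoplasm 3 became 1 with library sizes alone or factors from protein-coding genes, and 5 with only the groups compared.

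With 1 library left out, counts were 1 to 3 for auxin in DIS3-AID cytoplasm, 0 to 1 for auxin in control cytoplasm, 4 to 5 for the lines in cytoplasm, 1 to 2 for auxin on DIS3-AID chromatin, 2 to 6 for auxin on control chromatin, 4 to 6 for the lines on chromatin, 0 to 3 for the chromatin difference of responses, 1 to 2 for the lines in polyA RNA and 2 to 3 for the auxin effect on chromatin minus that in cytoplasm.

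Log2 values that changed sign were those of members not called, and most lay near 0. A pair did so under another scaling: FOSL1 between the lines in cytoplasm was 0.01 with factors from protein-coding genes, and JUNB on control chromatin after auxin was 0.01 with library sizes alone. The rest did so with 1 library left out. Then FOSB in control cytoplasm after auxin ran from -0.07 to 0.23, FOSL1 between the lines in cytoplasm from -0.08 to 0.02, the cytoplasmic difference of responses of JUND from -0.33 to 0.01 and the chromatin one of FOSL2 from -0.02 to 0.15. On DIS3-AID chromatin after auxin FOSB ran from -0.55 to 0.03, JUN from -0.24 to 0.09 and ATF3 from -0.05 to 0.16, and on control chromatin JUNB from -0.23 to 0.13. In polyA RNA FOSB after auxin in DIS3-AID cells ran from -0.91 to 0.03 and the difference of responses of FOSL2 from -0.36 to 0.13. The auxin effect on FOS on DIS3-AID chromatin minus that in cytoplasm ran from -0.10 to 0.73.

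Same-numbered libraries did not deviate together in every pair of any comparison (r over all tested features between -0.322 and 0.323), so numbers were not taken as pairs. That r does not settle the matter for single genes. For FOS, FOSB and ATF3 the same libraries stood apart in each data set, as given above. The data sets may thus not be independent for these genes, which was not tested. With the replicate block, members called were 4 for auxin in DIS3-AID cytoplasm, 3 for the chromatin difference of responses and 4 for the auxin effect on chromatin minus that in cytoplasm, and within 1 of the reported count in the other comparisons.

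With 3 libraries per group, the interval of the FOS log2 ratio after auxin in DIS3-AID cytoplasm ran from -1.70 to 0.30 around -0.70. It holds values from a large fall to a small rise, so the lack of a call does not show that FOS was unchanged.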
